A study of Mus musculus with 2 samples.

Results

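The genes described here encode the general splicing machinery of the cell: 70 of the 23123 gene symbols measured. They were chosen by symbol alone, as the Srsf, Tra2, Hnrnp, Snrp, Sf3a, Sf3b, U2af and Prpf genes found in both libraries, with pseudogene symbols left out. They comprise 11 genes of SR proteins, 2 Tra2 genes, 20 hnRNP genes, 12 genes of Sm and other snRNP proteins, 3 SF3A, 6 SF3B, 3 U2AF and 13 PRPF genes. Poly(A)-selected RNA came from medullary thymic epithelial cells (mTEC) of wild-type B6 mice, sorted from pooled thymi into an MHC class II high and an MHC class II low group. Each group gave 1 library, called the high and the low library here, so no difference has a replicate check and no test was made. Sequencing was paired-end with 100 bases per mate for the high library and single-end with 50 bases for the low one, so read type and group cannot be told apart.

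Introns are removed by the spliceosome, which is assembled anew on each intron from small nuclear ribonucleoproteins (snRNPs). Every spliceosomal snRNP except U6 and its minor counterpart carries a ring of Sm proteins around its RNA. U2AF marks the 3′ splice site, SF3A and SF3B tie the U2 snRNP to the branch site, and the PRPF proteins serve in several snRNPs and in activation. SR proteins mostly promote, and hnRNPs often repress, the use of nearby splice sites, so their balance sets many isoform choices. mTEC transcribe genes of many peripheral tissues, and how those transcripts are spliced bears on which protein isoforms developing T cells meet.

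The promoters of the 3 Sm genes Snrpe, Snrpf and Snrpg are shown first, because their proteins form a subcomplex of the Sm ring and the difference between the libraries was uneven among them. The sequences are from RefSeq (mouse build GRCm38.p6) and run 5′ to 3′ along the gene, from 250 bases before the start to 50 bases after it. Capitals mark matches, on either strand, to the letters CCGGAAG (ETS factors), AAGATGGC (YY1), GCGCATGC (NRF1), CCAAT (the CCAAT box), GGGCGG (the GC box) or TATAAA (the TATA box).
Snrpe promoter, chr1:133610231-133610530, minus strand: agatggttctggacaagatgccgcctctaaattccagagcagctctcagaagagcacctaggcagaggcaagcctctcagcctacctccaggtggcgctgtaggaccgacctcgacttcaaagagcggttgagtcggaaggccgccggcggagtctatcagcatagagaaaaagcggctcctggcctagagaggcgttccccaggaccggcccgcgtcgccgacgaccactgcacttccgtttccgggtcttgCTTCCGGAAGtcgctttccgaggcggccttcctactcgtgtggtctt
Snrpf promoter, chr10:93589609-93589908, minus strand: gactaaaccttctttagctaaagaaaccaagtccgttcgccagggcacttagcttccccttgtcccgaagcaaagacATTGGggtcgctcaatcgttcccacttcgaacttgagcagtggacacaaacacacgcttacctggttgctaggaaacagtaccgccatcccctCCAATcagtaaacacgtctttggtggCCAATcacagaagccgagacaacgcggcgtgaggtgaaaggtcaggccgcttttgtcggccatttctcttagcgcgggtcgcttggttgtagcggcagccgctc
Snrpg promoter, chr6:86371290-86371589, plus strand: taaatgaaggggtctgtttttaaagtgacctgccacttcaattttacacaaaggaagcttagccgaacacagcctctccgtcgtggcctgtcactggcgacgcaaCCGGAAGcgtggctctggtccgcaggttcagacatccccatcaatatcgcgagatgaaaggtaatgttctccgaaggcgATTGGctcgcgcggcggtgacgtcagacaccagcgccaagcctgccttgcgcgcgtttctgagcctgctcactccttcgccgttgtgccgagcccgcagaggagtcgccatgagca

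The Snrpe window held a pair of overlapping ETS matches, the Snrpf window 3 CCAAT matches and the Snrpg window an ETS and a CCAAT match. Promoter windows in the table covered 61 of the 70 members, with 82 windows in all, and windows of 1 gene can overlap. The ETS letters stood in 25 of these 82 windows (30.5%), against 14.7% of 15407 windows of all genes kept for the comparison and 8.86% of all 32851 windows. For the GC box the shares were 64.6%, 56.7% and 35.7%, and for CCAAT 47.6%, 37.5% and 37.4%. Classes differed. The GC box was found in 13 of 14 SR protein windows but in 5 of 14 Sm and snRNP and 6 of 14 PRPF windows. CCAAT was found in 17 of 27 hnRNP windows but in 4 of 14 SR protein and 4 of 14 Sm and snRNP windows. The ETS letters stood in 3 of 3 SF3A and 4 of 5 SF3B windows, and in 4 of 27 hnRNP and 0 of 3 U2AF windows. TATAAA stood in 8.54% of the members' windows and in 8.98% of those of kept genes, YY1 letters in 3.66% and 3.75%, and NRF1 letters in 4.88% and 4.33%. A match of letters describes the window and shows no binding.

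All 3 SF3A genes, whose proteins form a trimer, had an ETS match, shown here with 20 bases on each side. In these windows capitals mark the ETS match alone.
Sf3a1 window, chr11:4160327-4160373, plus strand: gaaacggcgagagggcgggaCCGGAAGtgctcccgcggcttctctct
Sf3a2 window, chr10:80798639-80798685, plus strand: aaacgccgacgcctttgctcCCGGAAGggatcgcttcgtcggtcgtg
Sf3a3 window, chr4:124714751-124714797, plus strand: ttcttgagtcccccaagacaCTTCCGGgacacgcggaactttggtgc

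The windows in Sf3a1 and Sf3a2 carry the letters on the strand of the gene, and that in Sf3a3 carries them on the opposite strand. The match lay 7 bases before the start in Sf3a1, 76 in Sf3a2 and 90 in Sf3a3.

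Values are RPKM, reads scaled to transcript length and to the size of the library, so levels can be compared between genes of a library. A gene with several RefSeq transcript lines takes the value of the line with the highest mean. A change is the log2 ratio of high to low after the low library was multiplied by 1.21 and 1 RPKM was added to each. That factor puts the median ratio of 5167 well-expressed genes at 1. Leaving out this factor adds up to 0.27 to each change, and setting both libraries to the same sum adds up to 0.15. Counting intervals (95%) of the ratio without the added 1 RPKM came from reads recovered from the RPKM steps, about 115000000 (high) and 20900000 (low). Their median width to each side was 0.09 on the log2 scale over the 70 members, and they cover counting error only. A filter at a mean of 0.5 RPKM left 15590 genes, and all 70 members passed.

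The labelled cell type was checked with marker genes. All 8 mTEC markers were found in both libraries, among them Epcam at 198 RPKM in the high library against 127 RPKM in the low, and Aire at 122 against 15.9 RPKM. The keratin genes Krt14 and Krt5 differed the other way, with 231 against 566 RPKM (-1.57) and 448 against 770 RPKM (-1.05). Markers of other cells moved between the libraries as well. The summed level of 7 fibroblast and pericyte markers was 35.6 RPKM in the high library against 622 RPKM in the low, and that of 6 endothelial markers 15.4 against 125 RPKM. Among the former, Pdgfrb hardly differed, at 4.03 against 3.98 RPKM. For 7 macrophage and dendritic markers the sums were 536 and 140 RPKM, with Flt3 listed at 0 in the low library. Most of these sums was Lyz2, with 493 and 133 RPKM. Of the 7, 6 lay above 0, and Itgax had 0.690 against 0.583 RPKM (-0.01). For 4 B cell markers the sums were 23.4 and 11.3 RPKM, with Cd79a and Ms4a1 listed at 0 in the low library, and for 7 thymocyte markers 15.4 and 10.7 RPKM. Of the 6 thymocyte markers that passed the filter given above, 3 lay above 0 and 3 below. Hba-a1, an erythroid globin gene, had 133 against 1915 RPKM. Of 9 proliferation markers 3 were 2-fold or more higher in the high library, where 16.1% of all kept genes were. None was 2-fold lower, where 9.35% of all kept genes were. Of the 9, 6 lay above 0 and 3 below, the lowest being Mcm2 with 4.23 against 5.82 RPKM (-0.62). The part of these cells in the changes below was not tested, and in such bulk samples fewer cells of a type and less RNA per cell cannot be told apart.

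The general splicing genes were well expressed in both libraries and few of them differed by 2-fold. Only Snrpn was 2-fold or more higher (1 of 70), where 16.1% of all kept genes were. Snrpg, Snrpd1, Prpf39 and Prpf40b were at least 2-fold lower (4 of 70), where 9.35% of all kept genes were. The other 65 members lay within 2-fold. At 1.5-fold, 4 members were higher, against 25.1% of all kept genes, and 18 were lower, against 19.5%. The median change of the members was -0.19, with 45 below 0 and 25 above, beside a median of 0.03 over all kept genes and 0.00 over those with a mean of 10 RPKM or more. Without scaling the members' median was 0.07, beside 0.25 over all kept genes. The sign of the members' median is thus set by the scaling, but it lay below that of all kept genes either way. The balance of the counts turned as well, to 4 higher and 1 lower at 2-fold and 11 higher and 5 lower at 1.5-fold. Of all kept genes 19.4% were then 2-fold higher and 6.48% 2-fold lower. The middle 50% of members spanned 0.68 on the log2 scale, against 1.03 for all kept genes.

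**Figure D1:**
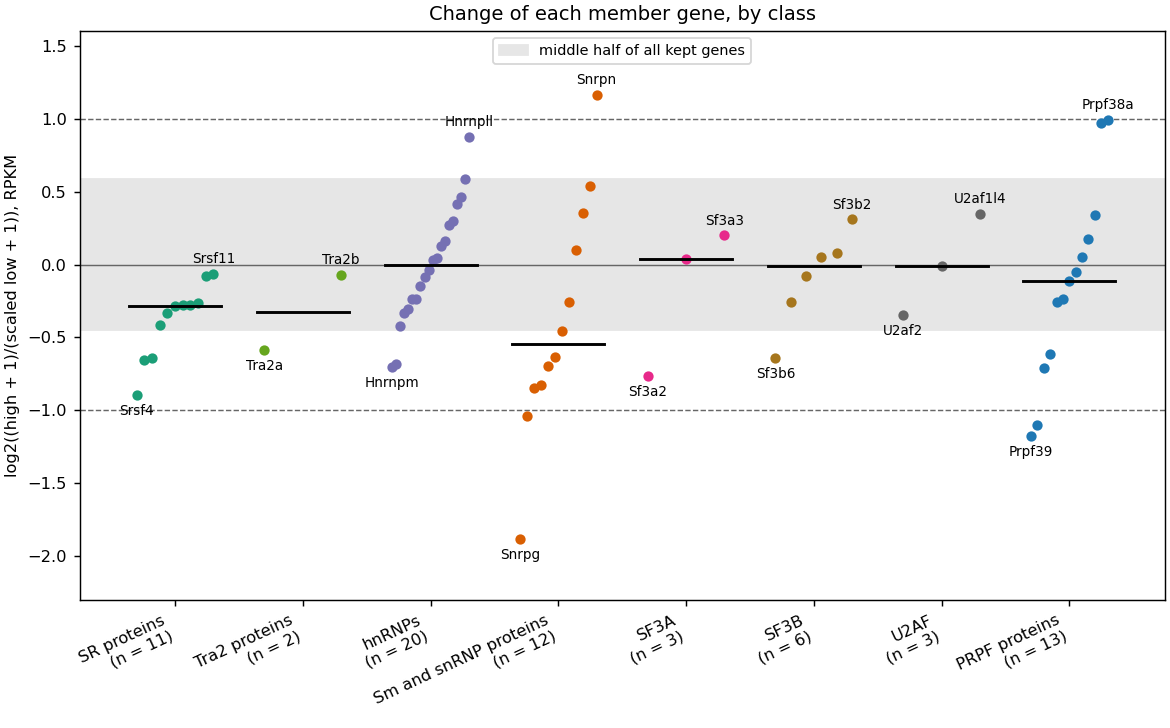
Log2 change of each of the 70 genes (points) by class, with the class median (black bar), the middle 50% of all 15590 kept genes (grey band) and 2-fold (dashed lines). SR protein genes lie between -0.90 and -0.06, while Sm and snRNP protein genes reach from -1.88 (Snrpg) to 1.17 (Snrpn).

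Levels spanned a wide range that was much alike in both libraries. The median member had 20.6 RPKM in the high library against 19.0 RPKM in the low, where the median kept gene had 5.88 and 4.93 RPKM. In the high library 48 members, and in the low library 46, stood among the top 25% of kept genes. Hnrnpa2b1, which encodes an hnRNP that binds many exonic and intronic sites, was the most abundant member in the high library with 125 RPKM and ranked 4 in the low library with 77.2 RPKM. Snrpd2, an Sm protein gene, led the low library with 124 RPKM and ranked 3 in the high library with 83.2 RPKM. Snrpg ranged from rank 2 in the low library to rank 20 in the high library. Srsf12, a relative of Srsf10, was the least abundant in both. Across the 70 genes the Spearman correlation of the levels in the 2 libraries was 0.91, and across the 15590 kept genes 0.80, as descriptions over genes that share each library's depth.

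**Figure D2:**
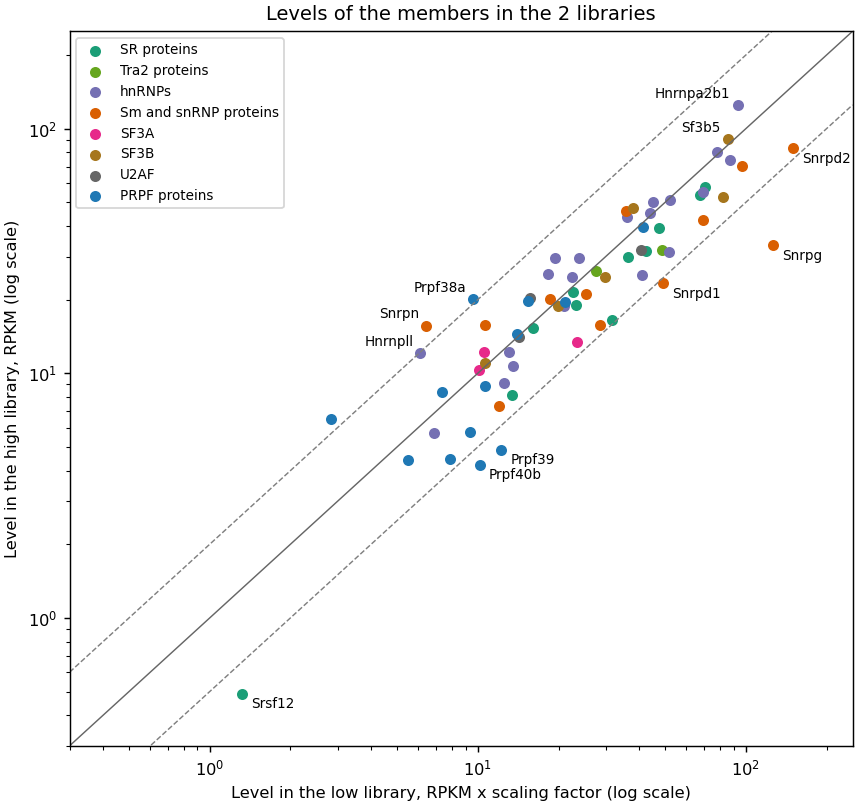
Level of each of the 70 genes in the high library against the scaled low library, both in RPKM on log axes, coloured by class. The solid line marks equal levels and the dashed lines 2-fold, with Snrpg far below the lower line. Without the added 1 RPKM, Srsf12 lies below the lower line, and Snrpn and Prpf38a lie above the upper.

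SR protein genes lay within 2-fold and below 0. SR proteins carry a domain rich in arginine and serine and act on exons and at splice sites. None of the 11 was past 2-fold, and 3 were 1.5-fold lower in the high library, leaving 72.7% within 1.5-fold, where 55.4% of all kept genes lay and 19.5% were 1.5-fold lower. Their changes ran from -0.90 to -0.06, with a median of -0.28. All 11 lay below 0, a direction that holds for 8 of 11 without scaling and for 9 of 11 with the same sum. As deposited, the values of Srsf1, Srsf2, Srsf3, Srsf5 and Srsf6 each differed by less than 5% between the libraries. Srsf2 had 57.7 RPKM in the high library against 58.2 RPKM in the low, and Srsf5 had 53.4 against 55.8 RPKM. Srsf3, which also takes part in mRNA export, had 39.3 against 39.1 RPKM. These 3 were the most abundant SR protein genes in both libraries.

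The remaining SR protein genes kept much the same order. Srsf6 had 29.8 against 30.004 RPKM and Srsf1, the classical splicing factor of the family, 18.9 against 19.2 RPKM. The change of each was -0.28, with a counting interval from -0.35 to -0.22 for Srsf6 and from -0.36 to -0.22 for Srsf1. Srsf7 had 31.5 against 35.0 RPKM (-0.42). After scaling, Srsf11 (15.4 against 13.3 RPKM, -0.06) and Srsf9 (21.4 against 18.7 RPKM, -0.08) lay nearest to 0. Their counting intervals, from -0.18 to 0.05 and from -0.23 to 0.06, included 0. Without scaling their changes were 0.19 and 0.18. The gene span of Srsf9 overlaps that of Gatc and the span of Srsf2 that of Mfsd11, whose own levels were 5.57 against 4.69 RPKM and 5.35 against 4.56 RPKM.

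Srsf4 was the SR protein gene with the lowest change, at -0.90. It had 16.6 RPKM in the high library against 26.2 RPKM in the low, with a counting interval from -1.03 to -0.84. Srsf10, whose protein represses splicing when it loses its phosphates, followed with 8.15 against 11.1 RPKM (-0.65). Srsf12 had 0.489 against 1.09 RPKM, and its change of -0.64 was held down by the added 1 RPKM. Its ratio without that addition had a counting interval from -1.85 to -0.9997, resting on 165 and 67 reads.

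Srsf10 was the member whose transcript lines disagreed the most. Its first line, matched to a GENCODE transcript of 3058 bases, had 8.15 RPKM in the high library against 11.1 RPKM in the low (-0.65). Its second line, matched to one of 3754 bases, had 4.89 against 3.03 RPKM (0.34). The second line thus made up 37.5% of the sum of both lines in the high library against 21.4% in the low, a comparison within each library that no scaling alters. The lines of a gene share reads wherever their exons coincide, so these shares are not isoform fractions. Of 22 members with more than 1 line, 16 had lines whose changes differed by less than 0.1. Next to Srsf10 came Hnrnpa2b1, with a difference of 0.30 between its 2 lines (125 against 77.2 RPKM and 86.5 against 66.1 RPKM). For Srsf3 and Srsf7 the values used are those of a noncoding transcript, which had the highest mean. The coding line of Srsf3 had 39.3 against 38.3 RPKM (-0.23), and the changes of the 4 coding lines of Srsf7 were all -0.30.

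The 2 Tra2 genes encode SR-like activators that bind GA-rich exonic sequences. Tra2a had 32.0 against 40.2 RPKM (-0.59) and Tra2b 26.3 against 22.8 RPKM (-0.07). Tra2a was the more abundant in both libraries. The ratio of Tra2b to Tra2a was 0.821 in the high library against 0.569 in the low.

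The hnRNP genes were balanced around 0. None of 20 was past 2-fold, where 16.1% of all kept genes were higher and 9.35% lower. At 1.5-fold 1 was higher and 2 were lower in the high library, against 25.1% and 19.5% of all kept genes. With a median of 0.00, 10 lay above 0 and 10 below. That split was 15 and 5 without scaling and 12 and 8 with the same sum. The changes ran from -0.70 to 0.88.

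At the upper end stood Hnrnpll, whose protein is known for repressing variable exons of Ptprc in lymphocytes. It had 12.0 RPKM in the high library against 5.05 RPKM in the low (0.88), with a counting interval from 0.82 to 1.15. Without scaling or with the same sum it passed 2-fold, at up to 1.11. Its relative Hnrnpl, a binder of CA-rich RNA, had 43.7 against 29.9 RPKM (0.27). Hnrnpa1, a repressor that binds UAG-containing sites, had 29.7 against 16.1 RPKM (0.58), just short of 1.5-fold. Hnrnpul1 had 25.6 against 15.1 RPKM (0.46) and Hnrnpa2b1, given above, a change of 0.42.

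The lower end was held by Hnrnpm and Hnrnpa0. Hnrnpm, which binds GU-rich RNA, had 31.4 against 42.7 RPKM (-0.70), and Hnrnpa0 had 25.1 against 33.9 RPKM (-0.68). Hnrnpa3 came next with 9.12 against 10.4 RPKM (-0.42). After scaling, several abundant hnRNP genes lay within their counting error of 0. Hnrnpk, which binds C-rich RNA, had 79.9 against 64.7 RPKM (interval from -0.02 to 0.08), Hnrnpc, a binder of uridine tracts, 50.9 against 43.3 RPKM (from -0.10 to 0.02) and Hnrnpf, a binder of G runs, 45.3 against 36.3 RPKM (from -0.03 to 0.12). Without scaling the changes of Hnrnpk, Hnrnpc and Hnrnpf were 0.30, 0.23 and 0.31. Hnrnph1, which binds G runs like Hnrnpf, had 55.0 against 57.5 RPKM (-0.33). The remaining 8 hnRNP genes had changes from -0.31 (Hnrnph3) to 0.30 (Hnrnpdl).

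**Figure D3:**
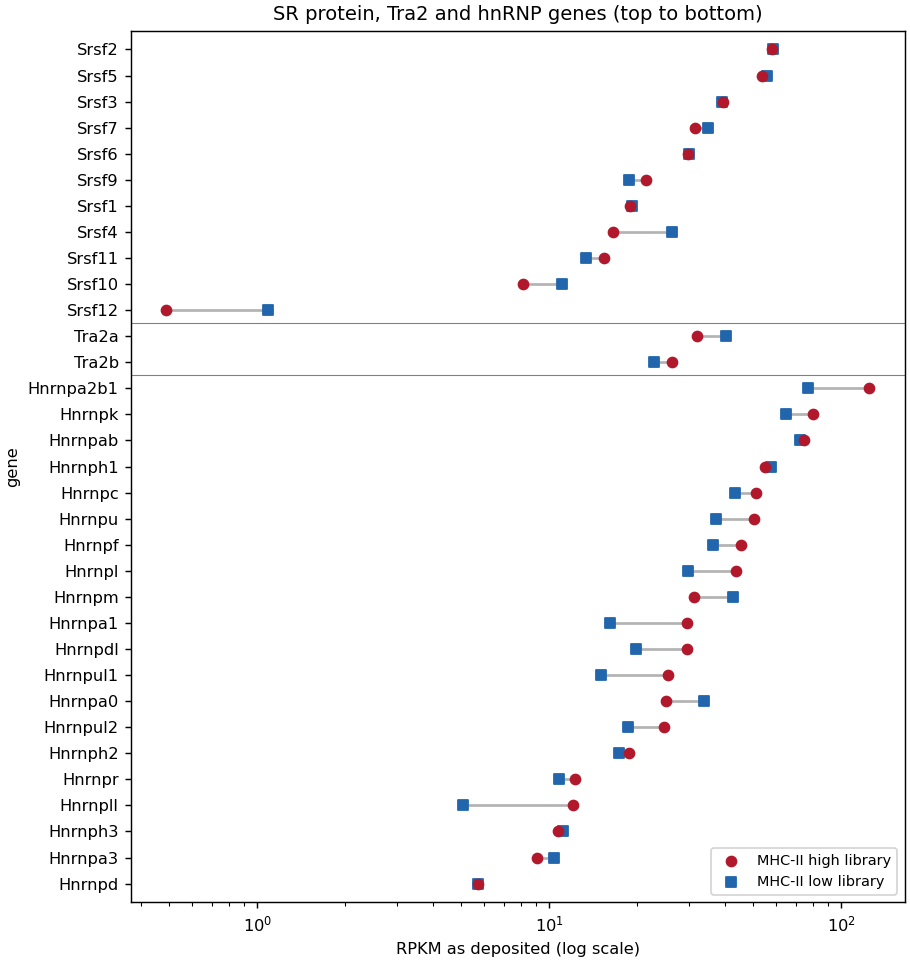
RPKM as deposited of 11 SR protein, 2 Tra2 and 20 hnRNP genes in the high (circles) and the low library (squares), on a log axis. For Srsf2, Srsf3, Srsf6 and Srsf1 the symbols nearly coincide, and the widest gaps are those of Srsf12 and Hnrnpll.

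Genes of Sm and other snRNP proteins lay on both sides of 0 and spread widely. Of 12, 1 was 2-fold higher and 2 were 2-fold lower in the high library, where 16.1% and 9.35% of all kept genes were. At 1.5-fold 6 were lower, where 19.5% of all kept genes were. Their median was -0.55 and their middle 50% spanned 0.99, against 0.79 for PRPF genes, 0.53 for hnRNP genes and 0.26 for SR protein genes. With genes of 1 transcript line the span was 0.80 for this class and 0.81 for PRPF genes, and with members that overlap no other gene it was 0.57, below the 0.66 of hnRNP genes. Without scaling the median was -0.29, with 7 of 12 below 0. The 8 of these genes whose span overlaps no other gene had a median of -0.73. Transcripts of this class are short, and the Spearman correlation of change with transcript length was -0.17 over the 12 genes and 0.00 over the 70.

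The 7 genes of the Sm ring, whose proteins occur together in the ring, went different ways. Snrpg had 33.4 RPKM in the high library against 104 RPKM in the low, a change of -1.88 with a counting interval from -1.99 to -1.84. It was lower by at least 2-fold under every one of the 11 settings tried, from -1.91 to -1.61. The filters cannot alter its value, and the transcript choices act on this gene of 1 line only through the scaling. Snrpd1 had 23.3 against 40.5 RPKM (-1.04), and it lay within 2-fold with 5 RPKM added, with the same sum and without scaling. Snrpd2 had 83.2 against 124 RPKM (-0.84), Snrpd3 42.4 against 57.3 RPKM (-0.70) and Snrpb 70.3 against 80.2 RPKM (-0.46).

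Snrpe and Snrpf stood on the other side. Snrpe had 46.0 against 29.6 RPKM (0.35, interval from 0.19 to 0.54) and Snrpf 15.8 against 8.77 RPKM (0.54, interval from 0.34 to 0.82). Thus the ratio of Snrpe to Snrpg was 1.38 in the high library against 0.284 in the low, 4.85 times higher in the high library. Between Snrpe and Snrpf the ratio hardly moved, at 2.91 and 3.37, and the counting interval of the log2 difference ran from -0.51 to 0.08. The levels of the 7 ring genes spanned 5.26-fold in the high library against 14.2-fold in the low. Processed copies of several of these genes exist in the genome, and the treatment of reads shared with them is not stated in the labels.

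Snrpn, an imprinted relative of Snrpb used mostly in brain, was the member with the highest change. It had 15.7 RPKM in the high library against 5.32 RPKM in the low (1.17, interval from 1.08 to 1.49). Its transcript also encodes Snurf, and the line of Snurf had nearly the same values, 15.7 against 5.32 RPKM, so the genes cannot be told apart. The span of Snrpn also overlaps that of Gm7367, which was listed at 63.9 against 50.8 RPKM, and its part in the value of Snrpn was not tested. Snrpb remained far more abundant in both libraries. Snrpn made up 18.2% of the sum of Snrpn and Snrpb in the high library against 6.22% in the low. With 5 RPKM added in place of 1 its change was 0.85.

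Genes of proteins particular to the U1 and U2 snRNPs differed by less than 2-fold. Snrpa and Snrpc, of the U1 snRNP, had 21.1 against 21.0 RPKM (-0.25) and 20.1 against 15.4 RPKM (0.10). Snrpb2 and Snrpa1, of the U2 snRNP, had 15.8 against 23.7 RPKM (-0.82) and 7.37 against 9.92 RPKM (-0.63).

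**Figure D4:**
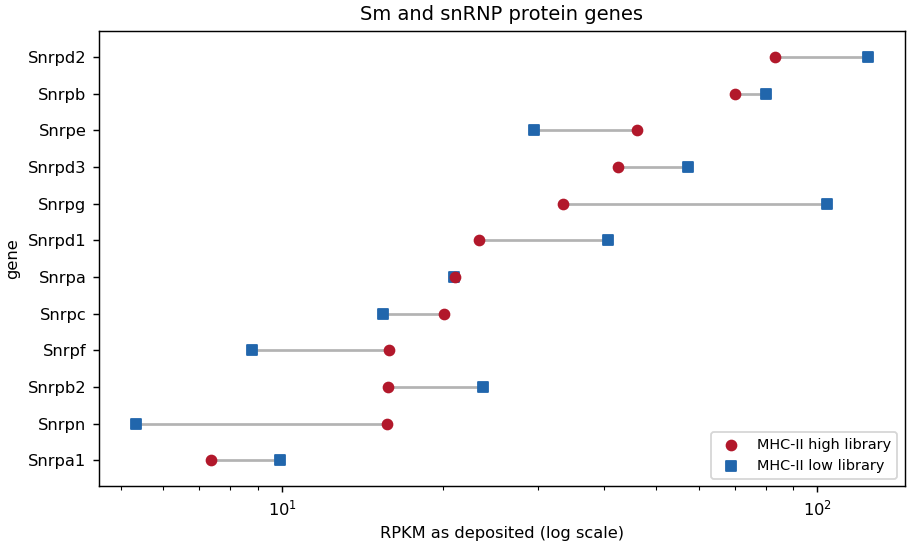
RPKM as deposited of the 12 genes of Sm and other snRNP proteins in the high (circles) and the low library (squares), on a log axis. Snrpg has the widest gap towards the low library and Snrpn the widest towards the high library.

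No gene of the branch-site complexes was past 2-fold. After scaling, 1 of 3 SF3A and 1 of 6 SF3B genes was 1.5-fold lower, where 19.5% of all kept genes were. Sf3b1, the large subunit that holds the branch site, had 24.8 against 24.6 RPKM (-0.26). Sf3b3 had 18.9 against 16.5 RPKM (-0.08), Sf3b4 11.0 against 8.80 RPKM (0.05) and Sf3b5, a small subunit, 90.9 against 71.1 RPKM (0.08). Sf3b2 had 47.3 against 31.4 RPKM (0.31). Sf3b6, which lies next to the branch-site adenosine, was the lowest with 52.3 against 68.1 RPKM (-0.64). The median of the 6 was -0.01. Without scaling it was 0.24, with Sf3b2 at 0.58 and Sf3b6 at -0.37.

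In SF3A, Sf3a1 had 10.4 against 8.32 RPKM (0.04) and Sf3a3 12.2 against 8.71 RPKM (0.20). Sf3a2, by contrast, had 13.4 against 19.4 RPKM (-0.76, interval from -0.91 to -0.70), and -0.50 without scaling. The ETS match shown above was present in all 3 promoters.

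After scaling, the U2AF genes lay within 1.5-fold. U2af2, which binds the polypyrimidine tract, had 31.8 against 33.6 RPKM (-0.34), and U2af1, which reads the AG of the 3′ splice site, had 14.1 against 11.8 RPKM (-0.01). U2af1l4, a relative of U2af1, had 20.2 against 13.0 RPKM (0.35) and was the more abundant of the pair in both libraries. Without scaling the change of U2af1l4 was 0.60, past 1.5-fold. Its span overlaps that of Psenen, a more abundant gene at 59.8 against 45.1 RPKM.

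The PRPF genes were expressed at lower levels, with a median of 8.39 RPKM in the high library against 8.42 RPKM in the low, and spread in both directions. Of 13, 2 were 2-fold lower and none 2-fold higher, where 9.35% and 16.1% of all kept genes were. At 1.5-fold 2 were higher and 4 lower, where 25.1% and 19.5% of all kept genes were. The median was -0.11. That median was 0.15 without scaling, with 8 above 0 and 5 below, and 0.03 with the same sum. The core scaffold Prpf8, which lies at the catalytic centre, had 19.6 against 17.6 RPKM (-0.11). Prpf19, a ubiquitin ligase of the activation complex, had 14.5 against 11.5 RPKM (0.05). Prpf6, a bridge within the tri-snRNP, had 19.8 against 12.7 RPKM (0.34).

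Genes of factors linked to the U1 snRNP held both lower calls of this class. Prpf39 had 4.86 RPKM in the high library against 10.1 RPKM in the low (-1.17, interval from -1.45 to -1.22). Prpf40b had 4.22 against 8.42 RPKM (-1.10, interval from -1.41 to -1.13). These intervals belong to the ratios without the added 1 RPKM, which were -1.33 for Prpf39 and -1.27 for Prpf40b. Without scaling both genes lay within 2-fold, at -0.92 and -0.85, as they did with 5 RPKM added, at -0.81 and -0.72. So did Prpf40b with the same sum, at -0.97. The span of Prpf39 overlaps that of Fkbp3, which had 20.2 against 27.2 RPKM, and the span of Prpf40b that of Fam186b, at 0.150 RPKM (high) and listed at 0 (low).

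Prpf38a, which joins the spliceosome before activation, was near 2-fold higher with 20.2 against 7.97 RPKM (0.99, interval from 0.88 to 1.26). It passed 2-fold without scaling, at 1.24, with the same sum, at 1.12, and with 0.1 RPKM added, at 1.06. Its relative Prpf38b had 39.8 against 34.1 RPKM (-0.05). The genes of U4/U6 proteins did not share a direction. Prpf3 had 4.45 against 6.53 RPKM (-0.71), Prpf4 4.43 against 4.55 RPKM (-0.26) and Prpf31 8.39 against 6.07 RPKM (0.17). Prpf4b, a kinase, had 5.78 against 7.75 RPKM (-0.61), and Prpf18, a second-step factor, 8.88 against 8.81 RPKM (-0.24).

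Ratios within a library do not depend on the scaling, and 22 pairs of relatives or partners, chosen with the values known, were set side by side. Besides the pairs named above, the ratio of Prpf38a to Prpf38b was 0.507 in the high library against 0.234 in the low. That of Hnrnpll to Hnrnpl was 0.276 and 0.169. Srsf4 stood at 0.557 times the level of Srsf6 in the high and at 0.875 times in the low library, and Hnrnpa3 at 0.0730 and 0.134 times that of Hnrnpa2b1. Other pairs kept their ratio closely. Srsf3 had 1.25 and 1.12 times the level of Srsf7, Hnrnph1 2.93 and 3.32 times that of Hnrnph2, and Snrpd1 0.280 and 0.326 times that of Snrpd2.

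**Figure D5:**
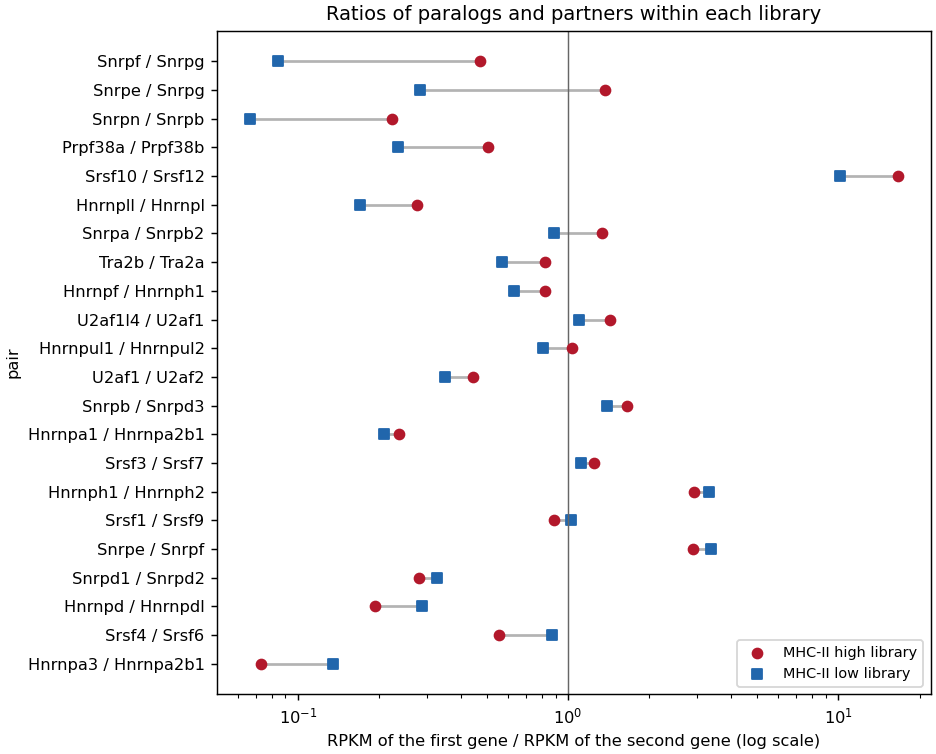
Ratio of the RPKM of the first to the second gene of 22 pairs in the high (circles) and the low library (squares), on a log axis, ordered by the difference. The widest gaps are those of Snrpf to Snrpg and Snrpe to Snrpg, and the latter lies on opposite sides of the line at 1 in the libraries.

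Other genes of the splicing pathway, in 5 lists chosen with earlier results of these data known, gave a like picture. Of 111 matched genes 109 were kept, 3 were at least 2-fold higher and 6 at least 2-fold lower, with a median of -0.20. Without scaling 3 were 2-fold higher and 1 was 2-fold lower. The shares over all kept genes are those given above. Among 27 genes of other snRNP proteins and of Lsm proteins, the latter forming rings like that of the Sm proteins, 1 was higher and 5 were lower. Their median was -0.24. Without scaling it was 0.01, with 14 genes above 0 and 13 below. Snrnp25, a protein of the minor spliceosome, had 63.6 against 24.8 RPKM (1.06). Lsm7 was the lowest with 13.4 against 37.8 RPKM (-1.70), and Lsm3 had 26.2 against 50.5 RPKM (-1.19). Lsm5 (2.50 against 5.35 RPKM, -1.09), Snrnp48 (3.97 against 8.86 RPKM, -1.23) and Snu13 (26.9 against 48.3 RPKM, -1.09) were the others. Without scaling Lsm7 alone of the 5 stayed past 2-fold. Among genes of the Lsm ring, as of the Sm ring, not all were lower. Lsm8, named after its value was seen, had 34.0 against 17.4 RPKM (0.67).

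Spliceosomal helicases and step factors had 0 of 31 kept genes past 2-fold in either direction, with a median of -0.15 that was 0.11 without scaling. They ran from Zrsr1 (3.04 against 4.57 RPKM, -0.69) to the helicase gene Dhx8 (5.88 against 3.03 RPKM, 0.56). SR protein kinases and SR-related proteins also had 0 of 23 past 2-fold. Like the SR protein genes they lay mostly below 0 (20 of 23, median -0.34), which was 14 of 23 without scaling. Clk2, a kinase that phosphorylates SR proteins, was the lowest with 7.53 against 12.5 RPKM (-0.92), and Rnps1 the highest with 18.8 against 12.9 RPKM (0.25).

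Of 15 snRNP assembly genes 2 were higher and 0 lower, with a median of -0.13 that was 0.13 without scaling. Prmt5, which methylates Sm proteins, had 11.4 against 4.04 RPKM (1.08), and Gemin2, which gathers Sm proteins for loading, 4.31 against 1.25 RPKM (1.08). Gemin7 was the lowest with 36.03 against 55.6 RPKM (-0.88). Nonsense-mediated decay, which removes many unproductive SR protein transcripts, had 0 of 13 genes higher and 1 lower, with a median of -0.20 that was 0.04 without scaling. The lower gene was Upf3b with 3.99 against 8.51 RPKM (-1.18), and the highest Smg8 with 8.16 against 4.28 RPKM (0.57).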

How the data were processed

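RNA of 2 libraries, 1 per group, was compared. The deposited values are RPKM, which the authors computed for each RefSeq transcript. Per the labels, RNA was poly(A)-selected and the kit keeps no strand, so overlapping and antisense genes share reads. Tools named without a role in the submitters' processing notes are Bowtie 1.0.0, bedtools and CASAVA, with build mm9. Of 30794 lines, 30396 were named through RefSeq and GENCODE tables. Sequences and gene spans are from GRCm38, a later build, and no coordinates of the authors' build are used. Depth was recovered from RPKM times GENCODE transcript length: of low transcripts with about 1 to 10 reads, 76.8% of 1638 (high) and 65.3% of 1061 (low) lay within 0.1 of a whole read. If mates were counted apart, the intervals are too narrow. Intervals are exact binomial, those of pair ratios normal on the log scale. The procedure was tested on simulated data. The rule named members past 2-fold, the 3 highest and 3 lowest changes and 2 highest levels of each class of 4 or more, all members of smaller classes, and companion genes past 2-fold or at either end of a list. Other members, pairs and neighbours were named after their values were seen. Members, classes, pairs and lists were chosen with earlier results of these data known. Alternatives were other pseudocounts (0.1 and 5 RPKM), scalings, filters and transcript choices, and, added after the data were seen, members overlapping no other gene. Planned protein features were not analysed here, and 1 counted member is not reported here. Scripts ran under Python 3.11.15 with scipy 1.17.1, pandas 2.3.3, matplotlib 3.10.9 and numpy 2.4.6.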

Additional observations from a re-analysis of the deposited data

How the results depend on the processing

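With 1 library per group, depth limits only the counting error, and Srsf12 with 165 and 67 reads has the widest interval. No paired analysis was possible because each group has 1 library. Among the counts and class medians under the alternatives, 104 values moved by no more than 1.5 times (counts) or the median counting error (medians) and 44 moved further. No named gene past 2-fold changed sign. Part of the 104 could not move, since all 70 members passed the filter and leaving it out alters none of their values. With 0.1 RPKM added, 3 members were 2-fold higher. With 5 RPKM added, 0 were higher and 1 lower, 0 and 2 of the companion genes were, and the Sm and snRNP median was -0.45. Without scaling, 4 members were 2-fold higher and 1 lower, 11 were 1.5-fold higher and 5 lower, and 1 companion gene was 2-fold lower. The medians were then 0.0732 for all members, -0.0174 for SR protein, -0.0626 for Tra2, 0.26 for hnRNP, -0.29 for Sm and snRNP, 0.28 for SF3A, 0.24 for SF3B, 0.24 for U2AF and 0.15 for PRPF genes. With the same sum, 4 members were 2-fold higher and 2 lower, 7 were 1.5-fold higher and 8 lower, and these medians were -0.0493, -0.14, -0.19, 0.14, -0.41, 0.17, 0.12, 0.13 and 0.0268. The same upper quartile, no filter, a filter at 5 RPKM and the mean over transcript lines moved none of these counts and medians further than that. With genes of 1 transcript line (48 members), 0 were 2-fold higher, and the medians were -0.47 for SR protein, -0.68 for Sm and snRNP, 0.33 for U2AF and -0.25 for PRPF genes. Among the 47 members that overlap no other gene, 0 were 2-fold higher and 2 lower and 1 was 1.5-fold higher, with medians of -0.73 for Sm and snRNP, -0.36 for SF3A and -0.18 for U2AF genes. The last 2 settings use fewer genes.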

Other observations

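A copy of Hnrnpa1 named as a pseudogene, Hnrnpa1l2-ps2, was left out of the members. It had 17.9 against 13.1 RPKM (0.17), beside 29.7 against 16.1 RPKM for Hnrnpa1, and reads shared between such copies cannot be assigned from these files.

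Of the 70 members, 23 have a gene span that overlaps another gene. These neighbours were chosen after their values were seen. BC024978 beside Snrpa was 2-fold higher in the high library with 4.25 against 0.821 RPKM (1.40), whereas Snrpa had a change of -0.25. Cox20, which overlaps Hnrnpu, had 20.1 against 31.1 RPKM (-0.87), and Hnrnpu had 50.3 against 37.2 RPKM (0.16). 4933408J17Rik, which overlaps Snrpf, had 2.11 RPKM in the high library and was listed at 0 in the low. Orc1, which overlaps Prpf38a, was at 0.214 against 0.350 RPKM.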
